A study of Mus musculus with 2 samples.

Results

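Of the 1280 HP1β peaks called in mouse embryonic stem cells (ESCs), 255 peaks (19.9%) lay in introns of genes that span less than 100 kb. A peak was counted here if its midpoint fell in an annotated gene body but in no exon of any transcript, if it was neither within 5 kb upstream nor within 1 kb either side of any transcript start, and if the longest gene holding the midpoint spanned less than 100 kb on the mouse assembly mm9 with the GENCODE vM1 annotation. The rule uses positions only, so that no measured value of a peak decided whether it was included. The study asked where HP1β sits in pluripotent cells and measured its binding by ChIP-Seq, in which crosslinked chromatin is precipitated with an antibody and the DNA bound to it is then sequenced. The samples were 1 HP1β ChIP library, made with the Euromedex 1MOD-1A9-AS antibody, and 1 library of input DNA made without antibody, both from untreated E14 ESCs, a male line of the 129P2/Ola background that was kept in PowerStem EsPro1 medium with LIF on gelatine. The labels describe the sheared fragments as dinucleosomal, while the study's methods give a length nearer to that of a single nucleosome with its linker. Each group had 1 library, so there was no replicate check, the peak list gives no read numbers, and the depth is unknown. All intervals given here are 95% intervals for the counting of peaks only, and no test between groups of peaks was made, because peaks of 1 library are not replicates.

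HP1β, encoded by Cbx1, is a member of the heterochromatin protein 1 family. Its chromodomain binds methylated H3K9 on histone tails, and its chromoshadow domain forms dimers and recruits partner proteins, so that the protein is best known as a constituent of compact, silent heterochromatin around centromeres. HP1 proteins are also found in the bodies of genes, where introns make up most of the length and carry repeats, splicing signals and regulatory elements.

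The sequences under 6 peaks show what these intronic regions look like. They include peaks with high scores whose interval holds no exon base, and the peak with the highest GC content. Each line gives up to 300 bases around the peak midpoint, from the plus strand of mm9 and written 5′ to 3′, with every CG dinucleotide, the site of DNA methylation in mammals, in capitals.
Zbtb41, chr1:141333388-141333687: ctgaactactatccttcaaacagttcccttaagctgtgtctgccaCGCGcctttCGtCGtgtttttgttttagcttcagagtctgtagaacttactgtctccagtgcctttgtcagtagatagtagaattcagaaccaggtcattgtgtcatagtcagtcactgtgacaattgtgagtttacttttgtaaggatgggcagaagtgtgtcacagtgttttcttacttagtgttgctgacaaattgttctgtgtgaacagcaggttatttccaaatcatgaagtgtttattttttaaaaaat
Ercc8, chr13:108978184-108978483: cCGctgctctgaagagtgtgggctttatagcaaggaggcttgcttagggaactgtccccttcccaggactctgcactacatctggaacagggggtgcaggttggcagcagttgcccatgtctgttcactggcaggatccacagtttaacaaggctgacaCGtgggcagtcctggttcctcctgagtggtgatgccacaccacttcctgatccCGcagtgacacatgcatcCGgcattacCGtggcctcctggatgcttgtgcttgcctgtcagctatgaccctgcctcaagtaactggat
Atf2, chr2:73675663-73675962: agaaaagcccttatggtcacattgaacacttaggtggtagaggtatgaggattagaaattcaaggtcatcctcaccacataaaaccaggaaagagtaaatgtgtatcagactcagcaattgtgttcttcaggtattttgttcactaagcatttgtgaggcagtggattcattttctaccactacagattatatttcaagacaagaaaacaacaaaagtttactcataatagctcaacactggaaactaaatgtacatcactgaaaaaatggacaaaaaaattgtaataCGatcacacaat
Pcmtd1, chr1:7147170-7147440: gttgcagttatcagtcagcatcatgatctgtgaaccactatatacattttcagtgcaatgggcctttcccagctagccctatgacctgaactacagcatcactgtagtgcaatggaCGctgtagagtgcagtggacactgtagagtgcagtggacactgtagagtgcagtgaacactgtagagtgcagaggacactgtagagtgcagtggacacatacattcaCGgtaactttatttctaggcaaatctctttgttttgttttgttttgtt
Edem1, chr6:108789709-108790008: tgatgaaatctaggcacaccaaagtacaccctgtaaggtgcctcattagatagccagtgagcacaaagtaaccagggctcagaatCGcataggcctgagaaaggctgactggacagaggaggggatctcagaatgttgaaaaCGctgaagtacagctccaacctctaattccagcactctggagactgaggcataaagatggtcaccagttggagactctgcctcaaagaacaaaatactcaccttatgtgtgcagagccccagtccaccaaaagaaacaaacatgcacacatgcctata
Ell, chr8:73103163-73103433: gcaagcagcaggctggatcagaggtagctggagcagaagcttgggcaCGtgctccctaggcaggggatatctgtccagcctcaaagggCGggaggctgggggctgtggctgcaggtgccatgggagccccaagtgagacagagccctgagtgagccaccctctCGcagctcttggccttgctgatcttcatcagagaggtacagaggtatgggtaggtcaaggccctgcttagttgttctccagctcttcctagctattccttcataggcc

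These 6 sequences differ widely in composition. The stretch in Atf2, which encodes a basic leucine zipper transcription factor, had a GC content of 34.7% and 1 CG, and its whole peak was the most AT-rich of the 255. The stretch in Ell, which encodes an elongation factor of RNA polymerase II, had a GC content of 59.0% and 3 CG dinucleotides. The stretch in Pcmtd1, a gene related to protein carboxyl methyltransferases, contained a tandem repeat with a period of 19 bp. It was exact over 53 bp and went on beyond them in copies with changed bases. The 4 CG dinucleotides in Zbtb41, which encodes a zinc finger protein, lay close together near the left end of the stretch.

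The 255 peaks were denser along the genome than the other peaks of the list. The positions that satisfy the same rule made up 284.8 Mb, which is 11.1% of the ungapped assembly, and they held 0.895 peaks per Mb (95% interval 0.789 to 1.01, exact Poisson). All 1280 peaks together gave 0.50 per Mb (0.473 to 0.528). On the log2 scale, the density in these introns was 0.99 above that of the rest of the ungapped genome (0.79 to 1.19). Introns of genes of 100 kb or more, chosen in the same way, held 312 peaks in 553.6 Mb, or 0.564 per Mb (0.503 to 0.630). The density in the shorter genes was thus 1.59 times that in the longer genes (1.34 to 1.88). It was 1.27 times (1.06 to 1.52) that in a joint class of exons and sequence near transcript starts, where 236 peaks lay. The paper reports HP1β as enriched in exons, more than in introns, and as depleted at transcript starts. Exons were not counted apart from starts here, so introns were not compared with exons. Against intergenic sequence with 477 peaks, the ratio was 2.60 (2.23 to 3.04).

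The limit of 100 kb did not mark a step. Density was 0.629 per Mb (0.424 to 0.897) in genes of 10 to 25 kb, 0.866 (0.684 to 1.08) in genes of 25 to 50 kb and 1.01 (0.853 to 1.2) in genes of 50 to 100 kb, which held 139 of the peaks. It was 0.824 (0.694 to 0.972) between 100 and 200 kb, 0.558 (0.463 to 0.667) between 200 and 500 kb and 0.302 (0.224 to 0.398) in genes of 500 kb or more. The intervals of neighbouring classes overlapped up to 100 to 200 kb, and the last 2 classes lay apart from each other and from the class of 50 to 100 kb. In the shortest class, under 10 kb, only 9 peaks were found in 11.1 Mb, or 0.809 per Mb (0.370 to 1.54). The genes nearest to the limit on the inner side were Rnf13, which encodes a ubiquitin ligase and spans 99.36 kb, with a peak score of 41.4, and Rbm6, which encodes an RNA-binding protein and spans 99.26 kb, with a score of 30.38. On the outer side they were Ccdc18 at 100.03 kb with a score of 46.9 and Epc2 at 100.46 kb with a score of 30.78.

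**Figure D1:**
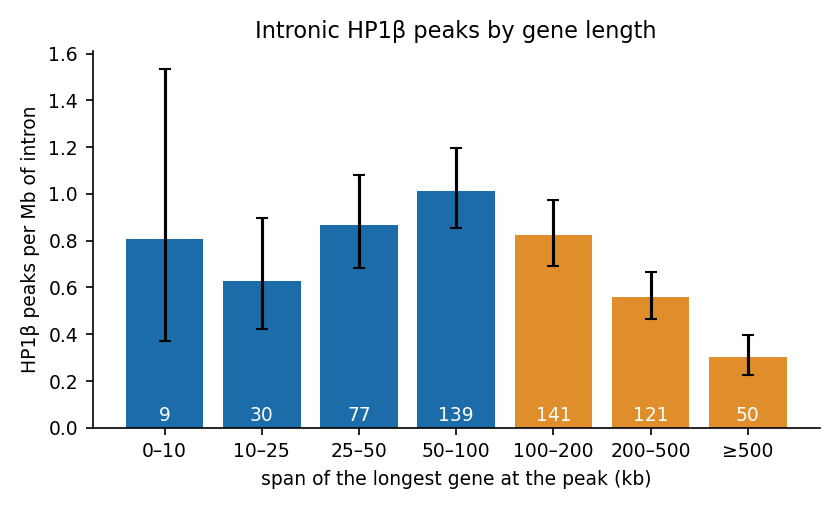
Intronic HP1β peaks per Mb of intron (y axis) by the span of the longest gene at the peak in kb (x axis), with genes under 100 kb in blue and longer genes in orange. Bars are densities in 1 library, error bars are exact Poisson 95% intervals, and the numbers in the bars are peak counts. Density was highest at 50 to 100 kb, at 1.01 per Mb, and lowest in genes of 500 kb or more, at 0.302 per Mb.

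The scores of the 255 peaks were close to those of the whole list. The score is the MACS p-value of a peak against input, put on a negative log10 scale and multiplied by 10, and 30 stands for the calling limit of 0.001. The median was 33.2 (32.8 to 33.9) with a range from 30.03 to 55.28, and the median of all peaks was also 33.2 (32.9 to 33.6). Scores were under 35 for 172 peaks, from 35 to 40 for 53 and from 40 to 50 for 29. Most of the 255 peaks thus lay not far above the calling limit. The paper states that limit as a p-value and gives no false discovery rate for the list. How many of the 255 peaks are false calls was not tested. A score of 40 or more was reached by 30 peaks (11.8%, exact binomial interval 8.08 to 16.4), against 13.6% of the whole list and 15.1% of the intronic peaks in longer genes (11.3 to 19.5). A score of 50 or more was reached by 1 peak (0.392%, 0.00993 to 2.17), against 1.88% of the whole list and 8 of the 312 intronic peaks in longer genes (2.56%, 1.11 to 4.99). The intervals overlapped in both cases, and those of the 255 peaks held the share of the whole list. None of the 255 scored 60 or more, which allows a share of up to 1.44% by the exact interval. Of all 1280 peaks, 8 did, which is a share below that limit. Across the 255 peaks, which share 1 library, the score had a Spearman correlation of 0.24 with peak width, of 0.0057 with GC content and of -0.089 with the distance to the nearest exon.

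**Figure D2:**
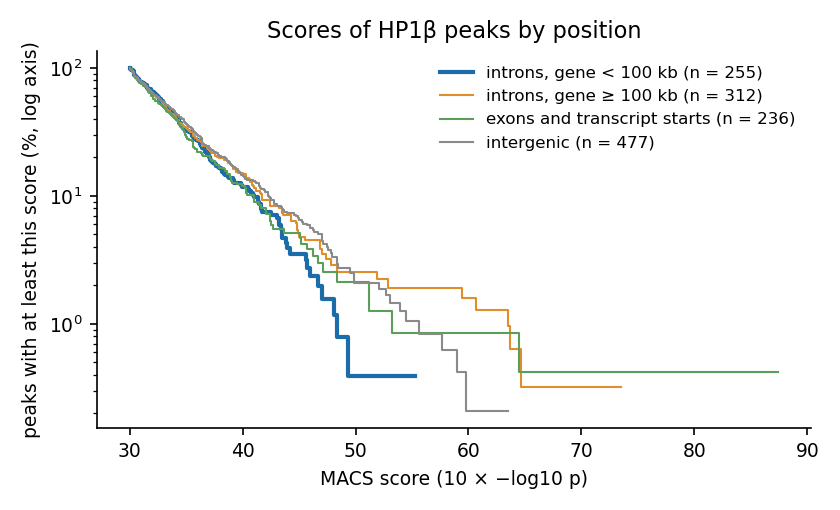
Share of peaks with at least a given score in percent (y axis, log scale) against the MACS score (x axis), for introns of genes under 100 kb (blue, thick), introns of longer genes (orange), exons and transcript starts (green) and intergenic peaks (grey). At a score of 40 the lines lay between 11.8% and 15.1%, and the blue line ended at 55.28 while each of the others went beyond 60.

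The highest score belonged to a peak of 597 bp in intron 7 of 28 of Ubap2 (ENSMUSG00000028433.8), which encodes a ubiquitin-associated protein. It lay at chr4:41172775-41173371, scored 55.28, and 55 of its bases were exonic although its midpoint was 240 bp from the exon. The next was in intron 5 of 10 of Zbtb41 at chr1:141333377-141333699 with a score of 49.4. Ercc8 encodes a protein of transcription-coupled DNA repair, and its last intron, 11 of 11, held a peak at chr13:108978160-108978507 with a score of 48.4. Atf2 followed with 48.1 in intron 8 of 11, at chr2:73675635-73675991.

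Sp140 encodes a nuclear body protein of immune cells, and its peak at chr1:87522723-87522934 scored 47, with 76.9% of its 50-mers unique in the assembly. Of the bases of that peak, 18 were exonic. Dnajc15, a gene for a mitochondrial co-chaperone, had a score of 46.7 in its last intron at chr14:78228741-78229038. Yaf2 encodes a partner of Polycomb repressive complexes, and its peak at chr15:93147751-93148052 scored 46.0 and had 11 CG dinucleotides in 300 bp. The midpoint of the Yaf2 peak was 68 bp from an exon and 70 of its 302 bases were exonic, so that these 300 bp include exon sequence. The GC content of these 7 peaks ran from 35% in Atf2 to 55.5% in Ercc8.

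The other genes among the 10 highest were Pcmtd1 (score 45.7), Sfi1 (45.6) and Edem1 (44.2). Sfi1 encodes a centrin-binding protein of the centrosome, and its peak at chr11:3062532-3063484 was the widest of the 255 at 953 bp. Edem1 encodes a protein that directs misfolded glycoproteins to degradation, and its peak at chr6:108789561-108790156 was 596 bp wide.

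The peaks were short and richer in G and C than these introns in general. Their median width was 247 bp (236 to 257), and the narrowest, of 76 bp, lay in the predicted gene Gm8237 at chr14:6045135-6045210. Over all 1280 peaks the median width was 250 bp (245 to 254). Median GC content within the peaks was 47.3% (46.2 to 47.9) and ran from 35% in Atf2 to 59.0% in Ell. In 300 bp around the midpoints, median GC content was 46.3% (45.7 to 47.3), against 43.3% over 899204 windows of 300 bp tiled over the same introns. A GC content of 40% or more was found in 90.6% of the peaks (86.3 to 93.9) and in 68.9% of the windows. At 55% or more the order turned, with 4 peaks (1.57%, 0.429 to 3.97) against 4.27% of the windows. CG dinucleotides numbered 3.27 on average around the peaks and 2.66 in the windows, and 92.9% of the peaks (89.1 to 95.8) had at least 1, against 85.2% of the windows.

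Peak density followed GC content in steps. It was 0.0303 per Mb (0.000768 to 0.169) in intron sequence of these shorter genes with a GC content under 35%, where 1 peak lay, and 0.415 (0.263 to 0.622) between 35 and 40%. It was 0.974 (0.763 to 1.22) between 40 and 45%, 1.41 (1.14 to 1.71) between 45 and 50% and 1.42 (1.07 to 1.85) between 50 and 55%, and was 0.329 (0.0897 to 0.843) at 55% or more. Introns of longer genes had a lower GC content, with a median over windows of 41.3%.

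Shorter and longer genes were also compared within classes of GC content. Whether their ratio changed with GC content was not tested. Between 35 and 40% GC, introns of longer genes held 0.239 peaks per Mb (0.163 to 0.337), with an interval that overlapped that of shorter genes. Between 40 and 45% they held 0.549 (0.437 to 0.682), below the interval for shorter genes. Between 45 and 50% they held 1.06 (0.878 to 1.26) and between 50 and 55% they held 1.31 (1.01 to 1.66), and there the intervals of shorter and longer genes overlapped. At 55% or more the longer genes held 0.672 (0.290 to 1.32), which was above the value for shorter genes with overlapping intervals. That class had only 8 peaks in longer genes and 4 in shorter genes. With the GC composition of the shorter genes' introns, the longer genes would have held 0.663 peaks per Mb, and the ratio of shorter to longer genes was then 1.35 in place of 1.59. The corresponding ratio was 1.25 for the joint class of exons and transcript starts and 1.96 for intergenic sequence. Whether the amplification or sequencing of GC-rich fragments had a part in these densities was not tested.

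**Figure D3:**
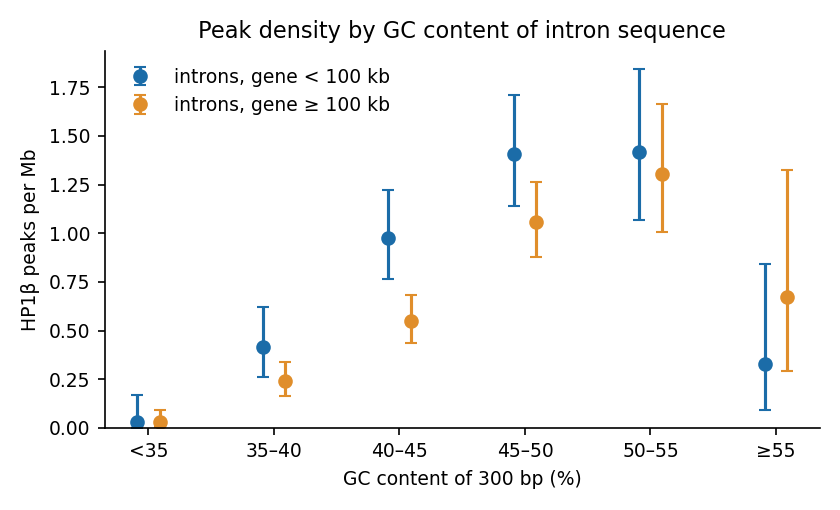
HP1β peaks per Mb (y axis) in intron sequence by GC content of 300 bp in percent (x axis), for genes under 100 kb (blue) and longer genes (orange). Points are densities in 1 library and error bars are exact Poisson 95% intervals. Both series were lowest under 35%, at 0.0303 and 0.0322 per Mb, and highest between 50 and 55%, and the intervals lay apart between 40 and 45%.

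Nearly all of the peaks were in sequence that occurs once in the genome. The authors kept only reads that aligned to a single place, which limits what can be measured in repeated sequence. Every 50-mer was unique in 239 of the 255 peaks (93.7%, 90 to 96.4), against 74.7% of the windows sampled from the same introns. The mean share of unique 50-mers was 98.5% in the peaks and 91.6% in the windows. It was 92.4% in windows from introns of longer genes, and per Mb of unique sequence the shorter genes were still 1.60 times as dense in peaks as the longer genes. No peak consisted mostly of 24-mers with 100 or more copies, which allows a share of up to 1.44%, and 3.60% of the windows did.

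Only 3 peaks had fewer than 50% unique 50-mers. They lay in Hrh1 at chr6:114424917-114425132 (0%, score 32.2), whose 24-mers had a median of 2 copies, in Gm16026 at chr1:85276937-85277161 (17.3%, score 33.7) and in Gm8237 (48.7%, score 32.34). Hrh1 encodes a histamine receptor, while the others are predicted genes. How the Hrh1 peak, without any unique 50-mer, came to be called from uniquely aligned reads was not tested. Reads cannot be placed with confidence in sequence with so few unique 50-mers, and these 3 positions are uncertain. Gm8237 held another peak, at chr14:6036347-6036561, with 53.0% unique 50-mers and a median of 4 copies of its 24-mers. The position of that peak is uncertain too.

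Short binding motifs of transcription factors were rare around the peaks, as they were in the introns. Each motif was searched on both strands in 300 bp around the midpoints. TCAAGGTCA, the site of the pluripotency factor ESRRB, was found at 2 peaks (0.784%), in Atf2, where it can be read in the printed sequence, and in Hrh1, against 0.873% of windows. ATTTGCAT, the octamer bound by POU5F1, was found at 3 peaks (1.18%) against 1.97%, and the SOX site ACAATGG at 12 (4.71%) against 4.31%. The E-box CACGTG was found at 13 peaks (5.10%) against 3.60%, among them the printed stretches of Ercc8 and Ell. TGCCGC, the site of ZFP57, was found at 2 peaks (0.784%) against 1.95% of windows. The AP-1 site TGACTCA was found at 14 peaks (5.49%) against 5.07%, and the KLF site GGGTGTGG at 9 (3.53%) against 2.30%.

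Of the simple repeats, runs of A or T were less frequent around the peaks than in the introns. A run of A or T of at least 12 bases was found at 2 peaks (0.784%, 0.0951 to 2.80) and in 4.56% of windows, while the share over all 1280 peaks was 0.703%. The windows were not matched to the peaks in GC content or unique sequence, and whether this had a part was not tested. CA repeats of at least 12 bases were found at 9 peaks (3.53%, 1.63 to 6.59) against 5.07%, and GA repeats of that length at 1 peak (0.392%, 0.00993 to 2.17) against 1.92%, and both intervals held the share of windows.

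Distances of the peaks to exons were close to those of intron positions in general, with somewhat more peaks within 2 kb. The median distance from midpoint to nearest exon was 1234 bp (1024 to 1512), against 1563 bp over all positions of these introns. Within 1 kb of an exon there were 109 peaks (42.7%, 36.6 to 49.1), against 38.5% of positions, and within 2 kb there were 164 (64.3%, 58.1 to 70.2), against 56.3%. Within 10 kb the shares were 91.4% and 91.6%. The interval excluded the share of positions at 2 kb and held it at 1 kb. In longer genes, 18.6% of the intronic peaks (14.4 to 23.4) lay within 1 kb of an exon, against 12.4% of their positions. The peak nearest to an exon was in S100pbp at chr4:128832582-128832754 (score 30.31), with its midpoint 1 bp outside and 85 exonic bases in the peak. The farthest was in Kcnk13, which encodes a potassium channel, at chr12:101258732-101259087 (score 37.9), 37848 bp from any exon. In all, 25 of the 255 peaks held exonic bases. Without them, the median distance was 1420.5 bp (1195 to 1754), 36.5% (30.3 to 43.1) lay within 1 kb and 60.4% (53.8 to 66.8) within 2 kb, so that every interval held the value over all positions, although leaving these peaks out also removes the distances nearest to exons by construction.

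**Figure D4:**
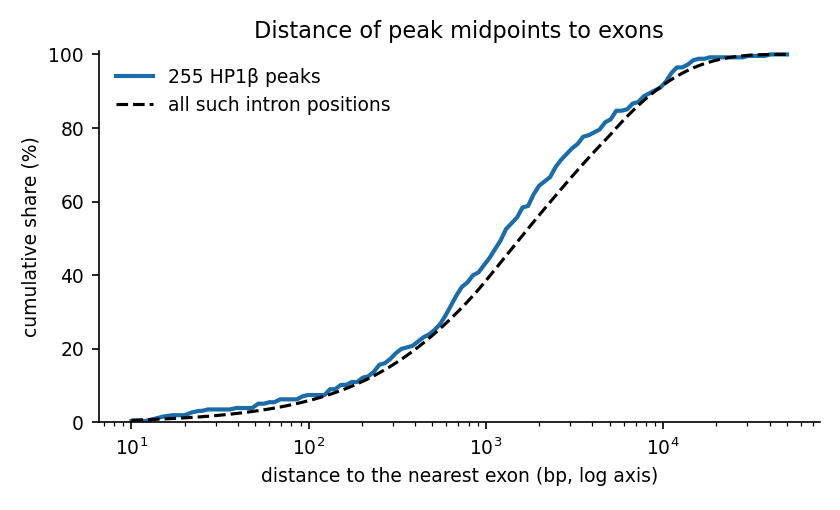
Cumulative share in percent (y axis) against the distance to the nearest exon in bp (x axis, log scale) for the 255 peak midpoints (blue) and for all intron positions that satisfy the same rule (dashed). The gap between the lines was widest around 2 kb, with 64.3% of peaks against 56.3% of positions, and at 10 kb the lines lay at 91.4% and 91.6%.

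First introns held fewer of the peaks than their length would give. They held 56 peaks (22.0%, 17.0 to 27.5), against 29.05% of positions, where the intron of a transcript with a single intron is included. Without the peaks that held exonic bases the share was 23.9% (18.6 to 29.96), and that interval held the share of positions. The sequence within 1 kb of transcript starts is left out of both numbers by the rule. Internal introns held 157 peaks (61.6%, 55.3 to 67.6) against 57.6% of positions, and last introns 40 (15.7%, 11.4 to 20.7) against 12.1%. In longer genes the share of first introns was 22.4% (17.9 to 27.5) against 24.3%. Along the gene from start to end, 35 peaks (13.7%) lay in the first 20%, 75 (29.4%, 23.9 to 35.4) between 20 and 40%, 51 (20%) between 40 and 60%, 54 (21.2%) between 60 and 80% and 40 (15.7%) in the rest. The positions were 17.1%, 22.3%, 22.2%, 21.6% and 16.8%, so that the stretch between 20 and 40% was the only one whose interval lay above the share of positions.

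The 255 peaks belonged to 245 genes. Protein-coding genes held 237 of them (92.9%, 89.1 to 95.8), against 91.0% of positions, lincRNA genes 10, processed transcripts 6 and pseudogenes 2. The median span of the gene at a peak was 52.8 kb. Another HP1β peak of any kind lay within 10 kb of 11 peaks (4.31%, 2.17 to 7.59), against 7.27% of the whole list. The interval held the share of the list, and most peaks stood alone among the 255 and in the list alike. No gene held 3 of the peaks and 10 genes held 2 each.

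Among these 10 genes, Dnajc15 had scores of 46.7 and 32.45, 25.1 kb apart. Atp10d, which encodes a lipid-flippase type ATPase, had 39.3 and 30.03. The annotation used here classes Atp10d as a lincRNA gene, and its peaks were counted as such above. Kcnk13 had 37.9 and 30.49, and Atg4c, which encodes an autophagy protease, had 38.1 and 32.2. Nfatc3 encodes a calcineurin-regulated transcription factor and had 34.1 and 30.77, and Asxl2 encodes a Polycomb-related chromatin protein and had 30.94 and 31.62. The remaining genes were Nhedc1 (33.5 and 31.9), B3galtl (35.5 and 30.38), 1110008L16Rik (30.05 and 32.09) and Gm8237 (35.6 and 32.34). Both peaks in Gm8237 lay in sequence that is only partly unique, and their positions are uncertain. The pairs lay between 8.12 kb, in Atg4c, and 29.6 kb, in Nhedc1, apart. In most of these genes both peaks scored under 40, Dnajc15 being the exception.

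In gene groups with a known tie to HP1 proteins or to pluripotency, the counts of peaks were too small to tell from those over all genes. Over all protein-coding genes under 100 kb, 229 of 19966 (1.15%) held at least 1, or 0.569 peaks per Mb of gene span. None of 35 genes of heterochromatin and HP1 partners held one, which allows a share of up to 10.0% by the exact interval, and neither did any of 38 pluripotency genes (up to 9.25%) or 45 genes of cohesin and the centromere (up to 7.87%). These limits lie far above the share over all genes, so that a difference was not detectable with so few genes. Among 326 genes named Zfp with a number, many of which encode KRAB zinc finger proteins and are known to carry HP1 proteins, 1 held a peak, namely Zfp180 (score 36.4, last intron). That is 0.307% (0.00777 to 1.70), or 0.176 peaks per Mb of span (0.00445 to 0.980), and both intervals held the value over all genes.

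The other lists had 1 to 3 such genes. Of 87 splicing genes, 3 held a peak (3.45%, 0.717 to 9.75), at 1.44 per Mb of span (0.297 to 4.21). They were Aqr, which encodes an intron-binding helicase (34.2, intron 27 of 34), Acin1, which encodes a factor associated with the exon junction complex (33.98, intron 4 of 18), and Prpf6, which encodes a component of the spliceosomal tri-snRNP (32.9, intron 1 of 20). Of 64 DNA repair genes, 2 held a peak (3.13%, 0.381 to 10.8), namely Rad50 of the MRN complex (33, intron 10 of 24) and Bard1, the partner of BRCA1 (31.4, intron 7 of 10). Ercc8 was not on that list. Of 11 genes of H3K36 methylation, 1 held a peak (9.09%, 0.230 to 41.3), namely Setd3 (31.16, intron 6 of 12), which is known chiefly as an actin methyltransferase. Every one of these intervals held the share over all genes.

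By chromosome, the peaks were unevenly spread. Chromosome 6 held 28 of them, or 1.81 per Mb of such introns (1.2 to 2.62), against 13.8 by length, and chromosome 12 held 19, or 1.54 per Mb (0.929 to 2.41), against 11.0. Chromosome 8 held 7 against 11.5, or 0.543 per Mb (0.218 to 1.12), and that interval held the 0.895 over all chromosomes. Chromosome X held none in 12.6 Mb, against 11.3 by length, which allows up to 0.293 per Mb by the exact interval, and 11 of all 1280 peaks lay on it. E14 cells carry a single X chromosome, so that copy number and peak density on it cannot be told apart here.

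Part of the excess was in regions where the whole list is dense. The regions had been found in an earlier examination of the same list, so that they are a description only. They are chromosome 6 from 105000001 bp to its end, with 21 of the 255 peaks and 125 of all, 20 Mb of chromosome 1 from 115000001 bp, with 4 and 38, and 5 Mb of chromosome 4 from 145000001 bp, with 4 and 22. Together they held 29 of the 255 (11.4%, 7.75 to 15.9), against 14.5% of all peaks and 20.5% of the intronic peaks in longer genes (16.2 to 25.4). Density of the peaks in shorter genes was 3.21 per Mb (2.15 to 4.62) inside the regions and 0.820 (0.716 to 0.934) outside. Without the regions, the ratio of shorter to longer genes was 1.77 (1.48 to 2.13). Median width was 326 bp (254 to 392) inside and 243 bp (233 to 252) outside, and median scores were 34.9 (32.2 to 36.4) and 33.0 (32.65 to 33.7).

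The distal part of chromosome 6 holds the gene complex of natural killer cell receptors. Of its 21 peaks, several lay in Klr genes, which were named here after their values had been seen. Klrb1a had a score of 43.5 (intron 4 of 5), Klra4 41.0 (intron 6 of 6), Klrb1b 36.15 (intron 1 of 5) and Klrb1c 34.97 (intron 5 of 5), and BC035044, which lies between Klrb1b and Klra4, had 34.8 (intron 2 of 2). The C-type lectin gene Clec4e, which lies outside that stretch at chr6:123234754-123235012, had 36.4 (intron 5 of 5). Genes of this family resemble each other in sequence. In the assembly, 92.7% of the 50-mers of the Klra4 peak and 96.1% of those of the Klrb1a peak were unique. Those of the remaining peaks named here were all unique. These shares count exact matches within the assembly only. Whether the genes have the same sequence and copy number in the cells used was not tested, and neither was the origin of the reads. The Klrb1a peak, at 407 bp, was wider than its intron of 0.287 kb, and 120 of its bases were exonic. The distal part of the chromosome also held Edem1 and Ccnd2, which encodes a D-type cyclin and had a peak of 551 bp with a score of 35.7.

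**Figure D5:**
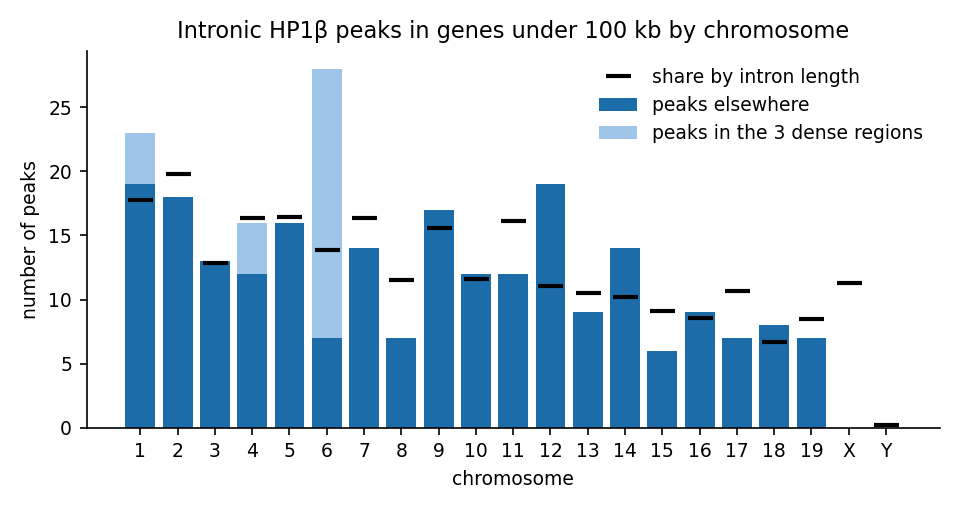
Number of intronic HP1β peaks in genes under 100 kb (y axis) by chromosome (x axis), with peaks in the 3 dense regions in light blue and the others in dark blue, from 1 library. Black marks give the number that each chromosome's share of such intron length would give. Chromosome 6 had 28 peaks, 21 of them in its dense region, and chromosome X had none.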

How the data were processed

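HP1β ChIP-Seq of E14 ESCs comprised 1 ChIP and 1 input library, and 1 list of 1280 peaks was analysed. The authors aligned 50 bp reads to mm9 with Bowtie (its version is not given in the sources used here), kept unique alignments with at most 1 mismatch and used MACS 1.4 to call peaks up to a p-value of 0.001, with enrichments of 8 to 30 fold used to build the model. The score deposited by the authors is 10 times the negative log10 of the MACS p-value. Read numbers are not part of the list, so that depth is unknown and intervals cover the counting of peaks only. Reads were not analysed here. Replicates could not be compared.

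Peaks were assigned by midpoint to GENCODE vM1 genes on the NCBIM37 assembly, which is mm9, and printed coordinates and sequences are from it, counted from 1. Where several genes held a midpoint, the longest was taken. Introns were numbered in its longest protein-coding transcript, or else its longest transcript, and 2 peaks lay outside the introns of that transcript. The share of positions was counted exactly over all ungapped positions that satisfy the same rule. Windows of 300 bp were tiled over these positions, and every 200th window (4497 windows) was used for copy counts of 50-mers and 24-mers, by exact match on both strands. Copy counting was tested on simulated sequence. Shares have Clopper-Pearson, densities exact Poisson and medians order-statistic intervals, and ratios of densities have the conditional binomial interval, all at 95%. Python 3.11.15, numpy 2.4.6, scipy 1.17.1, numba 0.67.0, pysam 0.24.0 and matplotlib 3.10.9 were used.

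Named genes were those of the 10 highest scores, all genes with 2 peaks, the extremes of width, exon distance, GC content and unique 50-mers, the genes next to the 100 kb limit, and the members of the gene lists. Natural killer receptor genes, their neighbours and Ccnd2 were added after their values were seen, and so was the choice of which sequences to print. Peaks, lists and dense regions were chosen with earlier results of these data known.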

Additional observations from a re-analysis of the deposited data

How the results depend on the processing

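The 12 results were recomputed under 14 alternative settings, which gave 136 values. Of these, 111 stayed within the counting interval of the reported value or, for the number of peaks, within 1.5 times of it, and the log2 density ratio stayed above 0 in all settings run. Without any exclusion near transcript starts there were 314 peaks, and with 5 kb excluded on both sides there were 200. With peaks scoring 40 or more only, 30 peaks were left, at 0.105 per Mb and a log2 density ratio of 0.73, with a median score of 43.3, a median width of 302 bp, a median GC content of 46.2%, a median distance to an exon of 906 bp, 53.3% within 1 kb of one and, by construction, 100% scoring 40 or more. With peaks at or above the median score, 128 were left at 0.449 per Mb, with a median score of 36.4, a median width of 267 bp and 23.4% scoring 40 or more. These shifts in number, density and score follow from leaving peaks out. With a limit of 50 kb, there were 116 peaks at 0.785 per Mb, with a log2 density ratio of 0.70, a median exon distance of 1023 bp and 49.1% within 1 kb. With a limit of 200 kb, there were 396, with 1738 bp and 35.9%. Without peaks that hold exonic bases, 36.5% (30.3 to 43.1) lay within 1 kb of an exon, and that interval held the 38.5% of positions. Leaving these peaks out also removes the distances nearest to exons by construction. With the shortest gene at each peak deciding, the mean share of unique 50-mers was 97.1%, and the cause was not tested. Without the 3 dense regions, the share in the distal part of chromosome 6 was 0 by construction. No paired analysis was possible because the ChIP and input groups have 1 library each. Unknown depth limits all values, and weak binding under the calling limit cannot be seen. Peaks just above that limit may include false calls, and their share was not tested.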
